A study of Mus musculus with 9 samples.

Results

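The interferon response and MHC class I genes are 49 genes that cells transcribe in answer to interferons or use to show peptides to T cells. They were taken by symbol from a list of names, and a gene was kept when its value was above 0 in at least 1 liver. All 49 were found among the 23183 symbols of the tables, and all 49 were above 0 in each of the 9 livers. By role, 4 were sensors of foreign or misplaced nucleic acid, 4 were transcription factors, 23 were antiviral effectors and 10 were interferon-inducible GTPases. Another 5 belonged to the immunoproteasome and the peptide transporter, and 3 encoded the class I molecule.

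Liver RNA was sequenced from 9 male C57BL/6J mice, an inbred strain prone to obesity on fat-rich food, in 3 groups of 3 with 1 library per mouse. ND mice (6, 7 and 9) ate a normal diet with 14% fat, and HFD mice (1, 2 and 3) ate a high-fat diet with 60% fat, each for 10 weeks. PRF 50 mice (3, 9 and 10) ate the high-fat diet for the same time and received a polymethoxyflavone-rich fraction (PRF) from leaves of Citrus sunki. The fraction was given by mouth at 50 mg/kg of body weight each day in carboxymethyl cellulose over the last 5 weeks, and fasted mice were sampled at postnatal day 100. HFD against ND measured the diet, PRF 50 against HFD measured the fraction on top of the diet, and PRF 50 against ND set treated livers beside livers of the normal diet. The mouse numbers identified animals within a group and did not pair them between groups.

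Interferons bind receptors whose kinases phosphorylate transcription factors, and a complex with STAT2 and IRF9 binds a DNA element rich in GAAA. A shorter palindromic site answers to interferon gamma, and several of the products, IRF7 among them, feed back on interferon production. Class I molecules carry peptides that the immunoproteasome makes and the TAP transporter moves, and most liver cells display them.

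Both DNA elements were looked for in the RefSeq promoter windows of the 49 genes on mouse build GRCm38.p6, from 250 bases before to 50 bases after the transcription start. The interferon-stimulated response element was searched as GAAANNGAAA and the gamma-activated site as TTCNNNGAA, each on both strands. A window was available for 37 of the 49 genes. There was none for Dhx58, Zbp1, Usp18, Oas2, Mx1, Mx2, Ifi27, Parp9, Parp14, Gbp6, Iigp1 and Tap2. The response element core occurred in 20 of the 37 genes (54.1%) and in 1079 of all 27025 genes with a window (3.99%). The gamma-activated site occurred in 11 of the 37 (29.7%) and in 2582 of all genes (9.55%). A match is a description of the sequence and was not taken as binding. By role, the response element core lay in 2 of 2 sensors, 1 of 4 transcription factors, 9 of 16 effectors, 7 of 8 GTPases, 0 of 4 immunoproteasome and transporter genes and 1 of 3 class I genes. The gamma-activated site lay in the windows of Irf1, Bst2, Ifi35, Ifit2, Ifitm3, Oas1a, Gbp7, Igtp, Irgm2, Tgtp1 and Psmb8.

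The windows of Oas1a (chr5:120907476-120907775, minus strand) and Rsad2 (chr12:26456403-26456702, minus strand) are given in full. These genes stood at opposite ends of the PRF 50 against HFD comparison, with log2 fold changes of 0.93 and -0.62. Capitals mark the matches in these and all following sequences from RefSeq, and a core on the other strand reads TTTC, any 2 bases, TTTC. Oas1a held a gamma-activated site 98 bases before the start and 2 overlapping response element cores that began 20 and 14 bases before it. Rsad2 held 1 core, 120 bases before the start.
Oas1a: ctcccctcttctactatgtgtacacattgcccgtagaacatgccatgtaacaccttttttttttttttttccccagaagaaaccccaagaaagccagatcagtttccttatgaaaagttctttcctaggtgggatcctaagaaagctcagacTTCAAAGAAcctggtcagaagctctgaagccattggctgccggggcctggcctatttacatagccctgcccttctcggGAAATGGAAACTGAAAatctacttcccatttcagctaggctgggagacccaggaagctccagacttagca
Rsad2: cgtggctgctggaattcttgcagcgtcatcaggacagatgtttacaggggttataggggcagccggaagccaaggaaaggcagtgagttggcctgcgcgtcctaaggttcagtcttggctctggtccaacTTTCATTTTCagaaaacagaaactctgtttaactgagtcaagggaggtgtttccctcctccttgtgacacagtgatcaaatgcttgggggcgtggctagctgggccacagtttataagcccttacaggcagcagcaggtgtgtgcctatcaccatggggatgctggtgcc

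Shorter stretches show single and repeated cores with 15 bases on either side. Gbp3 (chr3:142559984-142560029, plus strand) and Isg15 (chr4:156200860-156200911, minus strand) held overlapping cores, which began 45 and 39 bases before the start in Gbp3 and 78, 72 and 66 bases before it in Isg15. Ifit3 (chr19:34583358-34583431, plus strand) held 2 separate cores at 156 and 122 bases. Stat2 (chr10:128270261-128270300, plus strand) held 1 core at 222 bases and B2m (chr2:122147533-122147572, plus strand) held 1 core at 139 bases.
Gbp3: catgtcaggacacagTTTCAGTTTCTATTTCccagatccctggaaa
Isg15: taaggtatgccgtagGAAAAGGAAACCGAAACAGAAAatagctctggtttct
Ifit3: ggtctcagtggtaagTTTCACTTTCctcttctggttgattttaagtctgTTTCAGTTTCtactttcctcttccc
Stat2: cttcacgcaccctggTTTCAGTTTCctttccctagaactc
B2m: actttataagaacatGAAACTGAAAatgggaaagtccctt

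The GTPase genes Igtp (chr11:58199496-58199546, plus strand), Irgm2 (chr11:58214887-58214937, plus strand) and Tgtp1 (chr11:48992299-48992349, minus strand) shared a composite arrangement. In each of these 3 windows a gamma-activated site began 11 bases before a response element core. The response element cores of the 3 genes began 34, 64 and 77 bases before the start. The windows of Psmb9 and Tap1, which are read from opposite strands, shared 275 bases (chr17:34187306-34187580) and held neither element.
Igtp: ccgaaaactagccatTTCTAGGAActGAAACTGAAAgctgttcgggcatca
Irgm2: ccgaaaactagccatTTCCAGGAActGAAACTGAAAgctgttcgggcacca
Tgtp1: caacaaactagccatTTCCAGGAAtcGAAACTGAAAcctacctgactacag

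Many of the 49 genes lie in gene families side by side on a chromosome. Chromosome 11 carried 9 of them, among them Igtp, Irgm1, Irgm2, Ifi47 and Tgtp1. Chromosome 5 carried 7, which were Gbp6 and the 6 genes of the 2'-5'-oligoadenylate synthetase family. Chromosome 17 carried 6, which were Psmb8, Psmb9, Tap1, Tap2, H2-K1 and H2-D1. Reads of close relatives are hard to assign, which leaves the values of Ifit3 (beside Ifit3b), Oas1a and Oas1g, Gbp2 (beside Gbp2b), Gbp6, Tgtp1, Igtp and Irgm2, and the class I genes uncertain.

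The tables carried the label of liver, and the hepatocyte markers were abundant in every sample. The summed level of the 8 hepatocyte markers was 22198, 15011 and 14295 FPKM in the ND livers, 20016, 15715 and 13960 in the HFD livers and 17503, 16698 and 16888 in the PRF 50 livers, and Apoa1 was the most abundant in all 9. Alb, the albumin gene, was listed at 0 in all 9 livers. Sequencing depth was known only relative to HFD mouse 1, at 1.06, 1.15 and 1.11 in ND, 1.17 and 1.60 in HFD mice 2 and 3, and 0.981, 1.51 and 0.964 in PRF 50. The absolute depth was unknown. Over the 10048 genes averaging 1 FPKM or more in the 9 livers, the correlation between livers of 1 group ran from 0.975 to 0.986. The ranges between groups overlapped this one. They were 0.962 to 0.976 for HFD with PRF 50, 0.966 to 0.981 for HFD with ND and 0.967 to 0.982 for ND with PRF 50. The liver is a mixture of cells, and more cells of a type and more RNA in each cell cannot be told apart in these data.

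Levels of the 49 genes spanned a wide range, from a mean of 0.252 FPKM for Oas1g to 2328 FPKM for B2m, with a median of 7.89 FPKM. All values below are log2(FPKM + 1) unless FPKM is named, so that fold changes of genes near 1 FPKM are understated. Oas1g, Oas2, Oas3 and Mx1 averaged under 1 FPKM and were not tested in any comparison, and Tgtp1 was also untested in HFD against ND. That left 45 genes in PRF 50 against HFD, 44 in HFD against ND and 45 in PRF 50 against ND. The mean was highest in PRF 50 for 36 of the 49 genes, in HFD for 9 and in ND for 4. It was lowest in ND for 29 genes, in HFD for 16 and in PRF 50 for 4. The 3 comparisons share the ND, HFD or PRF 50 livers, so each is given by its own values. Genes named beyond a fixed rule were chosen after the values were seen.

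**Figure D1:**
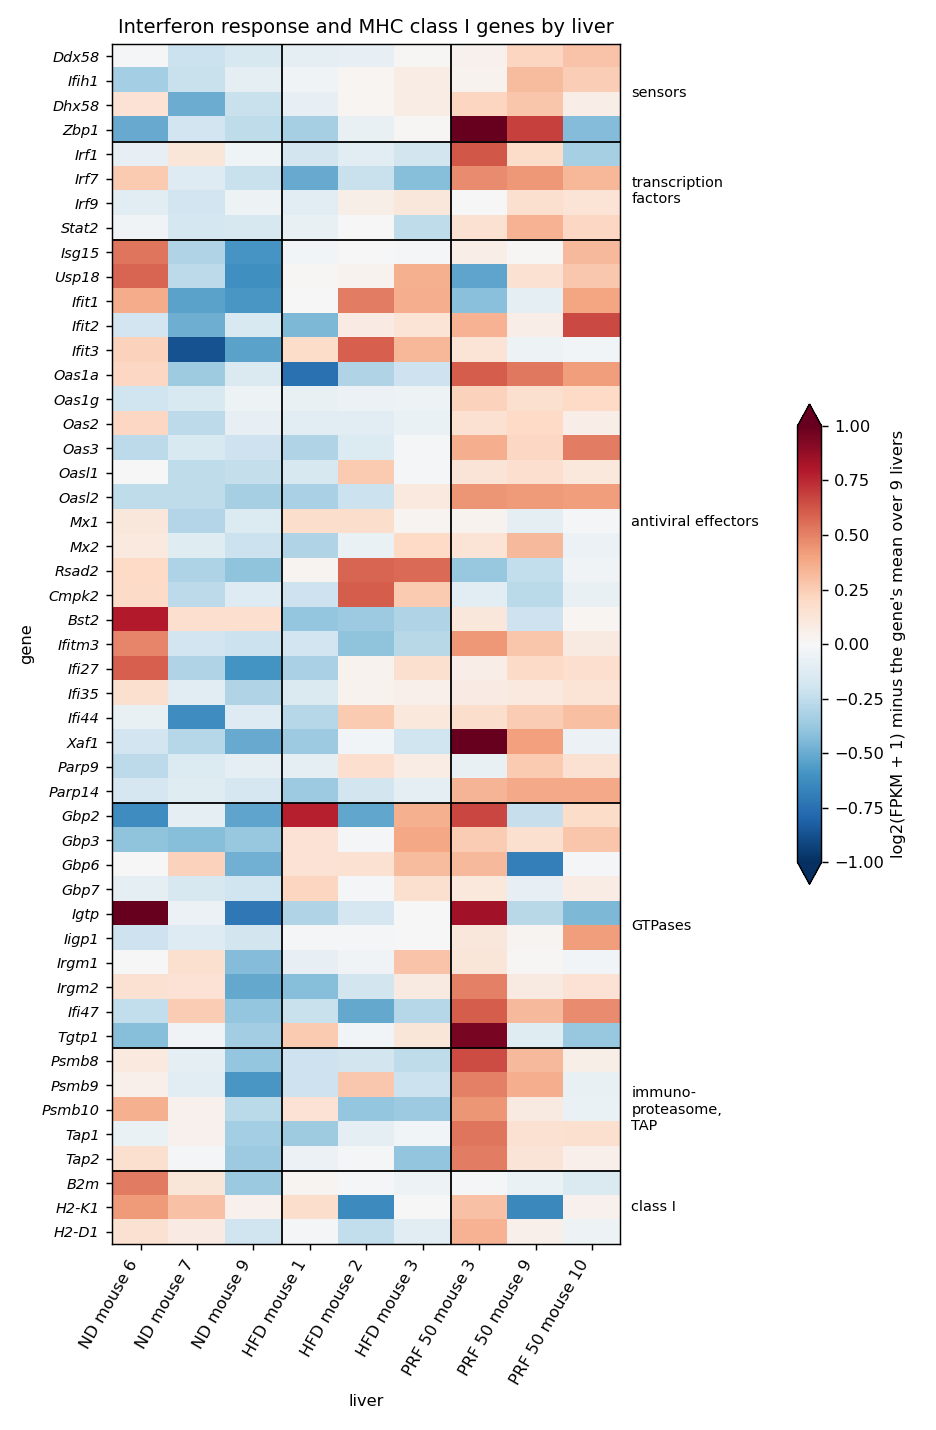
Level of the 49 genes in each of the 9 livers, with genes in rows by role, livers in columns by group, and colour for the difference of a liver from the mean of the gene over all livers in log2(FPKM + 1). The PRF 50 columns held the highest group mean of 36 genes, and within ND mouse 6 was the highest liver for 32.

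The PRF 50 mean was above the HFD mean in most of the 45 genes tested, by small differences, and the livers of the groups overlapped in more than they did not. There, 36 of 45 log2 fold changes were positive, and the median was 0.20 in a range from -0.62 to 0.93, against a median of -0.02 over all 10084 genes tested. limma with Benjamini-Hochberg adjustment over all genes tested gave an adjusted p under 0.05 for 4 genes higher in PRF 50 (Irf7, Ifi47, Oas1a and Parp14) and for 0 lower. These were 8.89% and 0% of the 45 genes, beside 1.43% and 2.16% of all genes tested. At an unadjusted p under 0.05, 14 genes (31.1%) were higher and 2 (4.44%) lower, beside 8.47% and 11.8% of all genes. An unadjusted limma p under 0.05 together with a fold above 2 was found for 0 of 45, beside 2.1% of all genes. All 3 PRF 50 livers lay above all 3 HFD livers for 16 genes (35.6%) and below them for 2 (4.44%), beside 10.9% and 15.3% of all genes.

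The 4 calls between PRF 50 and HFD depended on single livers. limma gave 4 calls without HFD mouse 1 (Irf7, Oas1a and Ifi47 higher and Rsad2 lower), 1 without HFD mouse 2 (Irf7) and 0 without HFD mouse 3. It gave 0 without PRF 50 mouse 3, 2 without PRF 50 mouse 9 (Irf7 and Ifi47) and 3 without PRF 50 mouse 10 (Zbp1, Irf7 and Ifi47). With no minimum level 2 of the 4 calls remained, Irf7 and Ifi47. The 14 genes higher at an unadjusted p under 0.05 moved less, to between 11 and 16 over the 6 omissions. The 2 lower genes became 1 without HFD mouse 2 or PRF 50 mouse 9 and 4 without PRF 50 mouse 3.

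Between HFD and ND the 44 genes tested leaned little to either side. There, 28 of 44 log2 fold changes were positive, with a median of 0.12 in a range from -0.72 to 0.77, against a median of -0.01 over all 9978 genes tested. limma gave an adjusted p under 0.05 to 0 genes in either direction, beside 0.702% of all genes higher and 0.631% lower. At an unadjusted p under 0.05, 5 genes (11.4%) were higher (Gbp3, Ifit3, Rsad2, Gbp7 and Ifih1) and 2 (4.55%) lower (Bst2 and Irf7), beside 7.82% and 7.26% of all genes. With the fold above 2 added, 0 of 44 remained, beside 1.34% of all genes. The groups did not overlap for 5 genes higher in HFD (11.4%) and 2 lower (4.55%), beside 10.7% and 10% of all genes. Leaving out 1 liver moved the 5 higher genes to 8 (without ND mouse 6 or HFD mouse 1), to 3 (without HFD mouse 2) or to 2 (without ND mouse 7, ND mouse 9 or HFD mouse 3). The 2 lower genes became 1 without ND mouse 6, ND mouse 7 or HFD mouse 3. The median became -0.01 without ND mouse 9, 0.05 without ND mouse 7, 0.06 without HFD mouse 2 and 0.18 without HFD mouse 1.

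The PRF 50 mean was also above the ND mean in most genes, with livers that overlapped in more of them than not. There, 38 of 45 log2 fold changes were positive, with a median of 0.30 in a range from -0.40 to 0.85, against a median of -0.03 over all 10051 genes tested. limma gave an adjusted p under 0.05 to 2 genes higher in PRF 50 (4.44%, Gbp3 and Oasl2) and to 0 lower, beside 0.159% and 0.298% of all genes. At an unadjusted p under 0.05, 19 genes (42.2%) were higher and 0 lower, beside 6.06% and 6.44% of all genes. With the fold above 2 added, 0 of 45 remained, beside 1.76% of all genes. All PRF 50 livers lay above all ND livers for 18 genes (40%) and below them for 1 (2.22%, Bst2), beside 8.19% and 11.8% of all genes. Both calls ended when any single liver was left out, and Zbp1 was called without PRF 50 mouse 10. The 19 higher genes became 12 without ND mouse 7 and 10 without ND mouse 9, and the count lower became 1 without ND mouse 9.

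**Figure D2:**
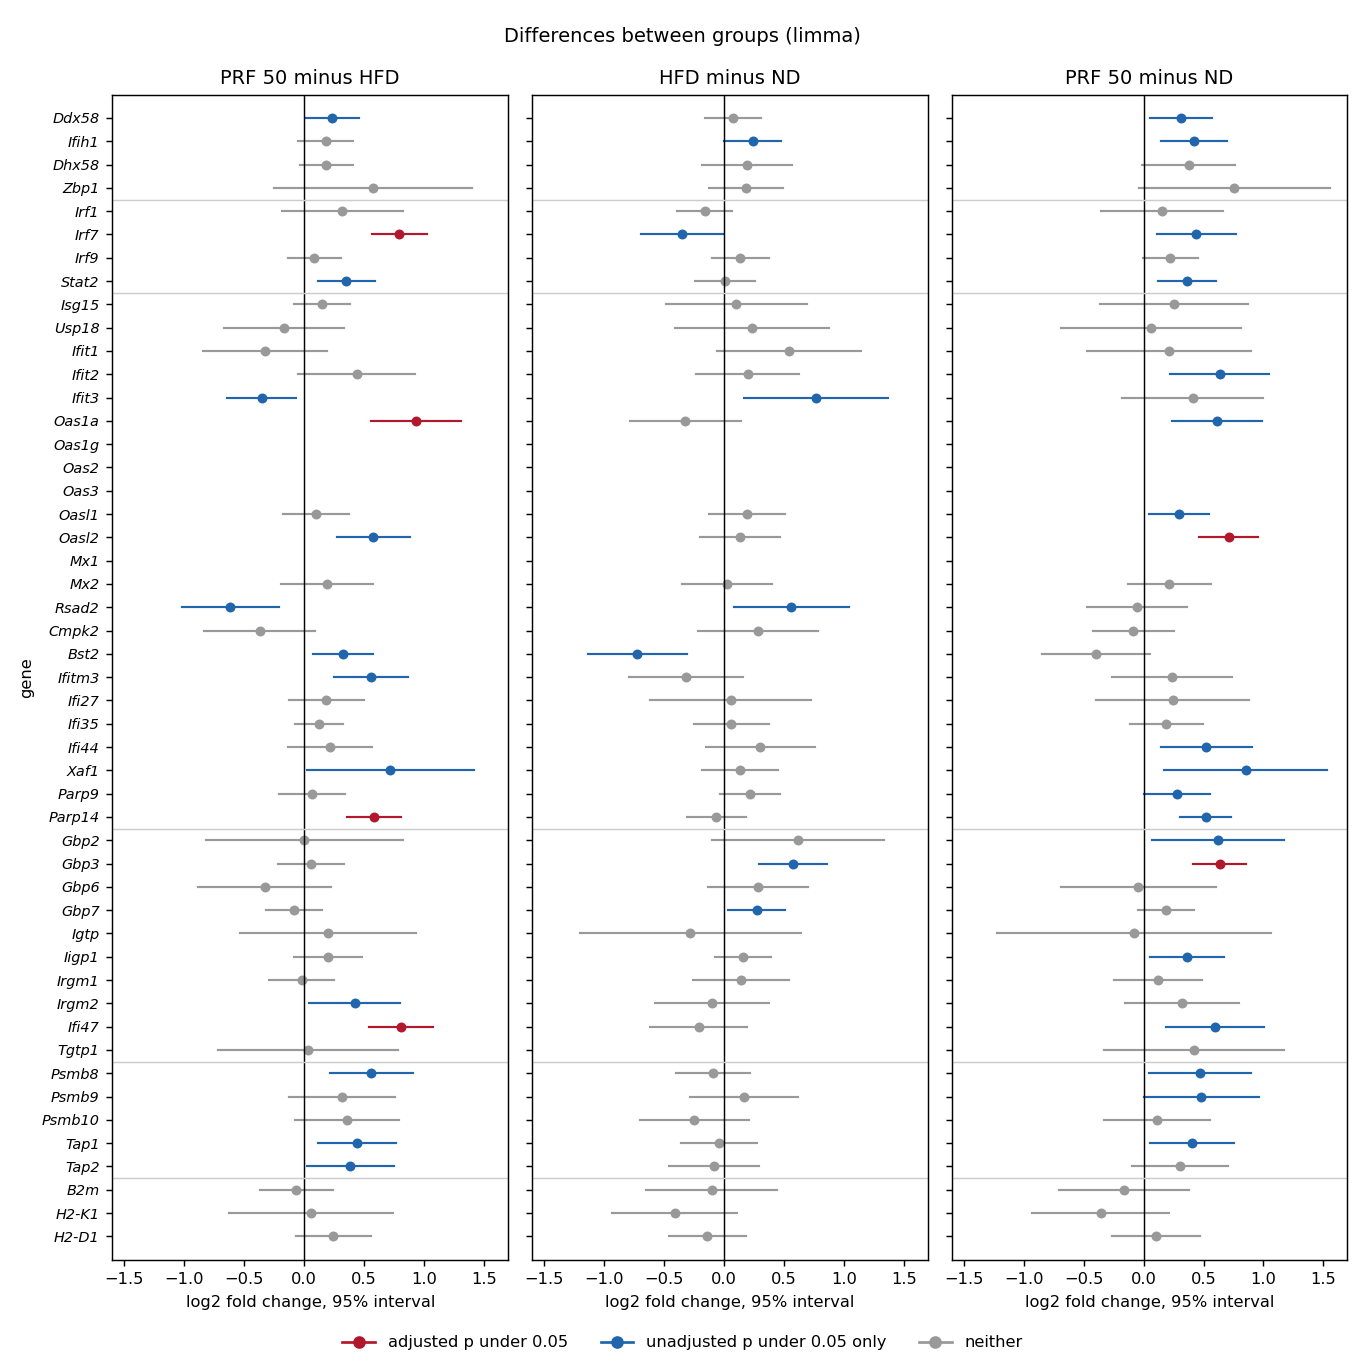
Log2 fold change of the tested genes among the 49 in the 3 comparisons, by role, with 1 point and a 95% interval per gene. Red marks an adjusted p under 0.05 by limma, blue an unadjusted p under 0.05 only, and grey neither. Untested genes have no point. In PRF 50 against HFD 36 of 45 tested genes lie right of 0, in HFD against ND 28 of 44 and in PRF 50 against ND 38 of 45.

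The 4 sensors bind viral or misplaced RNA and DNA and start or tune interferon production. All 4 log2 fold changes were positive in each comparison. Positive shares of all genes were 47% in PRF 50 against HFD, 48.3% in HFD against ND and 43.4% in PRF 50 against ND. limma called 0 of the 4 sensors in any comparison. In the same order it called 1.43%, 0.702% and 0.159% of all genes higher and 2.16%, 0.631% and 0.298% lower. Ifih1, the sensor of long double-stranded RNA, had the highest mean over the 9 livers of the 4, at 6.58 FPKM in ND, 7.93 in HFD and 9.15 in PRF 50, where Zbp1 was higher. It stood at 2.80, 2.92 and 3.04 in the ND livers, 3.11, 3.16 and 3.21 in the HFD livers and 3.18, 3.45 and 3.39 in the PRF 50 livers. Every HFD and PRF 50 liver lay above every ND liver, and HFD mouse 3 lay above PRF 50 mouse 3. The log2 fold change of Ifih1 was 0.24 in HFD against ND (unadjusted p 0.0474, adjusted p 0.324 by limma). Against ND it was 0.42 in PRF 50 (adjusted p 0.193 by limma), and against HFD it was 0.18 (adjusted p 0.356). Ddx58, which encodes the RNA sensor RIG-I, had log2 fold changes of 0.23 in PRF 50 against HFD and 0.31 against ND, with unadjusted p of 0.0397 and 0.0242 by limma. Dhx58, a regulator of the other RNA sensors, had values of 0.18 and 0.38 in these comparisons. Zbp1, which binds Z-form nucleic acid, was spread widely within PRF 50, at 4.09, 3.70 and 2.58, and its log2 fold change there was 0.57 against HFD (standard error 0.351).

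Irf7 was the most abundant of the 4 transcription factors and had the smallest p of all 45 genes between PRF 50 and HFD. Irf7, the factor that drives interferon alpha genes, stood at 4.76, 4.38 and 4.28 in the ND livers, 4.0, 4.29 and 4.08 in the HFD livers and 4.97, 4.94 and 4.84 in the PRF 50 livers. The PRF 50 livers lay closest together and above all other livers, whereas ND mouse 9 lay just below HFD mouse 2. Mean levels were 21.5, 16.5 and 29.2 FPKM in ND, HFD and PRF 50. Irf7 (chr7:141262706-141266481, minus strand) rose in PRF 50 against HFD by 0.79 (standard error 0.0990, 95% confidence interval 0.56 to 1.03, adjusted p 0.0150 by limma). Its adjusted p ran from 0.0105 to 0.0654 over 13 alternatives, of which 11 kept the call. The call ended without HFD mouse 3 (0.0654) and without PRF 50 mouse 3 (0.0538). Against ND the log2 fold change of Irf7 was -0.35 in HFD (unadjusted p 0.0443) and 0.44 in PRF 50 (unadjusted p 0.0145), with adjusted p of 0.318 and 0.259 by limma. Without ND mouse 6 the value in HFD was -0.21 (unadjusted p 0.113 by limma).

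The other 3 factors were not called by limma in any comparison. Stat2, which binds DNA together with IRF9, had log2 fold changes of 0.35 in PRF 50 against HFD and 0.36 against ND, with unadjusted p of 0.0102 and 0.00844 by limma. All 3 PRF 50 livers lay above all other livers for Stat2, at 2.90, 3.09 and 2.95. Irf9, its DNA-binding partner, had log2 fold changes of 0.08 and 0.22 in the same comparisons. Irf1, which acts downstream of interferon gamma, stood at 4.48, 4.04 and 3.53 in PRF 50 mice 3, 9 and 10, so that mouse 10 lay below all 6 livers of the other groups. Its log2 fold change was 0.32 in PRF 50 against HFD and -0.16 in HFD against ND.

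Of the 23 antiviral effectors 19 were tested in each comparison. Positive log2 fold changes numbered 14 in PRF 50 against HFD, 15 in HFD against ND and 16 in PRF 50 against ND. The positive shares of all genes were 47%, 48.3% and 43.4%. limma called Oas1a and Parp14 in PRF 50 against HFD and Oasl2 in PRF 50 against ND. Of all genes, 1.43% and 0.159% were called higher in these comparisons. Ifitm3, which blocks entry of viruses through endosomes, was the most abundant effector at 651 FPKM in ND, 509 in HFD and 752 in PRF 50. It stood at 9.77, 9.09 and 9.07 in the ND livers, 9.09, 8.88 and 9.0 in the HFD livers and 9.72, 9.56 and 9.37 in the PRF 50 livers. PRF 50 lay above HFD in every liver, and ND mouse 6 was the highest of the 9. The log2 fold change of Ifitm3 in PRF 50 was 0.56 against HFD (adjusted p 0.0684 by limma) and 0.24 against ND, and in HFD against ND it was -0.32. The last became -0.09 without ND mouse 6 and -0.19 with quantile normalization. The value against ND became 0.47 without ND mouse 6, 0.13 without ND mouse 7, 0.12 without ND mouse 9, 0.15 without PRF 50 mouse 3 and 0.41 with quantile normalization. Of 13 alternatives that normalization alone gave Ifitm3 a call against HFD, in a range of adjusted p from 0.0445 to 0.213 by limma.

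The 2'-5'-oligoadenylate synthetases make the messenger that switches on RNase L, and 3 of the 6 were tested. Oas1a stood at 1.49, 0.92 and 1.13 in the ND livers, 0.53, 0.97 and 1.07 in the HFD livers and 1.88, 1.80 and 1.69 in the PRF 50 livers. PRF 50 lay above every other liver, and the ND and HFD livers overlapped. Oas1a (chr5:120896256-120907521, minus strand) rose in PRF 50 against HFD by 0.93 (95% confidence interval 0.56 to 1.31, adjusted p 0.0321 by limma). This was 2.47 FPKM beside 0.836, and 0.61 was the log2 fold change against ND (adjusted p 0.172). Over 12 alternatives the adjusted p of Oas1a ran from 0.0252 to 0.0890 and 6 kept the call. It ended without HFD mouse 2 (0.0876), HFD mouse 3 (0.0681), PRF 50 mouse 3 (0.0890), PRF 50 mouse 9 (0.0701) or PRF 50 mouse 10 (0.0590), and with no minimum level (0.0679). A pseudocount of 0.1 brought its log2 fold change to 1.53 against HFD and 0.93 against ND.

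Oasl2, a synthetase-like protein that strengthens RIG-I signalling in mice, was steady within PRF 50. Its values were 0.96, 0.96 and 0.89 in the ND livers, 0.90, 1.0 and 1.32 in the HFD livers and 1.66, 1.64 and 1.64 in the PRF 50 livers. Every PRF 50 liver lay above the other 6. Oasl2 (chr5:114896936-114912234, plus strand) rose in PRF 50 against ND by 0.71 (95% confidence interval 0.46 to 0.96, adjusted p 0.0447 by limma). Only 3 of 12 alternatives kept the call, in a range of adjusted p from 0.0316 to 0.161. Omission of any 1 liver ended it, with adjusted p from 0.0740 to 0.161, as did a pseudocount of 0.1, no minimum level or quantile normalization. Against HFD the log2 fold change of Oasl2 was 0.58 (adjusted p 0.0619 by limma, and 0.0349 in 1 fit of all 9 livers, at the low end of a range up to 0.18 over 12 alternatives). With a pseudocount of 0.1 it was 0.91 against HFD and 1.14 against ND. Oasl1, its relative that holds back translation of Irf7 mRNA, had log2 fold changes of 0.10 against HFD and 0.30 against ND.

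The untested synthetases Oas1g, Oas2 and Oas3 were low in all livers. Oas3, the longest of the family, stood at 0.14, 0.25 and 0.20 in the ND livers, 0.10, 0.26 and 0.39 in the HFD livers and 0.77, 0.61 and 0.91 in the PRF 50 livers. Oas1g stood at 0.55, 0.48 and 0.51 in PRF 50 and at no more than 0.27 elsewhere. When the minimum level was dropped, limma gave log2 fold changes of 0.51 for Oas3 and 0.26 for Oas1g in PRF 50 against HFD (adjusted p 0.0827 and 0.0567). Oas2 had 0.24 in that fit (adjusted p 0.0848). Mx1, a gene of the dynamin-like GTPase family, was untested as well and had -0.15 (adjusted p 0.368).

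Parp14, an ADP-ribosyltransferase of macrophages and other cells, was the other effector called between PRF 50 and HFD. It stood at 2.35, 2.39 and 2.34 in the ND livers, 2.15, 2.33 and 2.42 in the HFD livers and 2.85, 2.89 and 2.89 in the PRF 50 livers. Values within ND and within PRF 50 spread by less than those within HFD, and no PRF 50 liver overlapped another group. Parp14 (chr16:35832874-35871544, minus strand) rose in PRF 50 against HFD by 0.58 (95% confidence interval 0.36 to 0.80, adjusted p 0.0289 by limma). Means were 4.14, 3.93 and 6.36 FPKM in ND, HFD and PRF 50. The adjusted p ran from 0.0134 to 0.0932 over 12 alternatives, and 5 kept the call. Without HFD mice 1, 2 and 3 in turn it was 0.0511, 0.0932 and 0.0681, without PRF 50 mice 3, 9 and 10 it was 0.0798, 0.0655 and 0.0623, and with no minimum level it was 0.0640. Against ND the log2 fold change was 0.52 (adjusted p 0.0690 by limma, and 0.0368 in 1 fit of all 9 livers, at the low end of a range up to 0.216 over 12 alternatives). Parp9, its neighbour on chromosome 16, had log2 fold changes of 0.07 against HFD and 0.28 against ND.

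Rsad2 and Ifit3 ran in the other direction, with their highest group means in HFD. Rsad2, which makes the chain terminator ddhCTP, stood at 2.19, 1.68 and 1.59 in the ND livers, 2.02, 2.57 and 2.56 in the HFD livers and 1.61, 1.74 and 1.95 in the PRF 50 livers. All HFD livers lay above all PRF 50 livers, and ND mouse 6 lay above HFD mouse 1. In PRF 50 against HFD its log2 fold change was -0.62 (95% confidence interval -1.02 to -0.21, adjusted p 0.103 by limma), and in HFD against ND it was 0.56 (adjusted p 0.263). Without HFD mouse 1 limma called Rsad2 lower in PRF 50. Ifit3, which binds viral RNA in a complex with Ifit1, stood at 3.72, 2.61 and 2.95 in the ND livers, 3.67, 4.08 and 3.82 in the HFD livers and 3.62, 3.44 and 3.45 in the PRF 50 livers. Here too HFD lay above PRF 50 in every liver, while ND mouse 6 lay among the HFD livers. Ifit3 had a log2 fold change in PRF 50 against HFD of -0.36 (adjusted p 0.162 by limma), and in HFD against ND of 0.77 (adjusted p 0.231). Cmpk2, the neighbour of Rsad2, and Ifit1 also had their highest means in HFD, with log2 fold changes of -0.37 and -0.33 in PRF 50 against HFD. Ifit2 differed from these, at 1.23, 0.94 and 1.27 in ND, 0.97, 1.50 and 1.56 in HFD and 1.77, 1.49 and 2.09 in PRF 50. PRF 50 mouse 9 lay among the HFD livers for Ifit2 and above all ND livers, and the log2 fold change against ND was 0.64 (adjusted p 0.191 by limma).

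Bst2, which tethers budding viruses to the cell surface, had the smallest p of the effectors between HFD and ND. Its values were 8.0, 7.37 and 7.37 in the ND livers, 6.82, 6.85 and 6.90 in the HFD livers and 7.32, 7.0 and 7.23 in the PRF 50 livers. The order ND, PRF 50, HFD held without overlap, and ND mouse 6 stood apart. Means were 195, 115 and 145 FPKM in ND, HFD and PRF 50. limma gave Bst2 a log2 fold change of -0.72 in HFD against ND (adjusted p 0.120), which quantile normalization brought to an adjusted p of 0.0434 in a range up to 0.325 over 13 alternatives. In PRF 50 it was 0.33 against HFD (adjusted p 0.148) and -0.40 against ND (adjusted p 0.452). Xaf1, which opposes inhibitors of apoptosis, stood at 3.13, 2.33 and 1.85 in PRF 50 and had log2 fold changes of 0.72 against HFD and 0.85 against ND, with unadjusted p of 0.0445 and 0.0202. Its PRF 50 mouse 10 lay below HFD mouse 2.

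The remaining tested effectors were Isg15, Usp18, Mx2, Ifi27, Ifi35 and Ifi44. Their log2 fold changes in PRF 50 against HFD ran from -0.17 for Usp18, which removes the ISG15 modifier, to 0.22 for Ifi44. Isg15, the modifier itself, stood at 4.79, 3.95 and 3.66 in the ND livers, 4.22, 4.26 and 4.23 in the HFD livers and 4.32, 4.27 and 4.58 in the PRF 50 livers. Its ND livers spanned all other values. Against ND, Ifi44 was the one of the 6 with an unadjusted p under 0.05, at a log2 fold change of 0.52 in PRF 50 (0.0134 by limma).

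**Figure D3:**
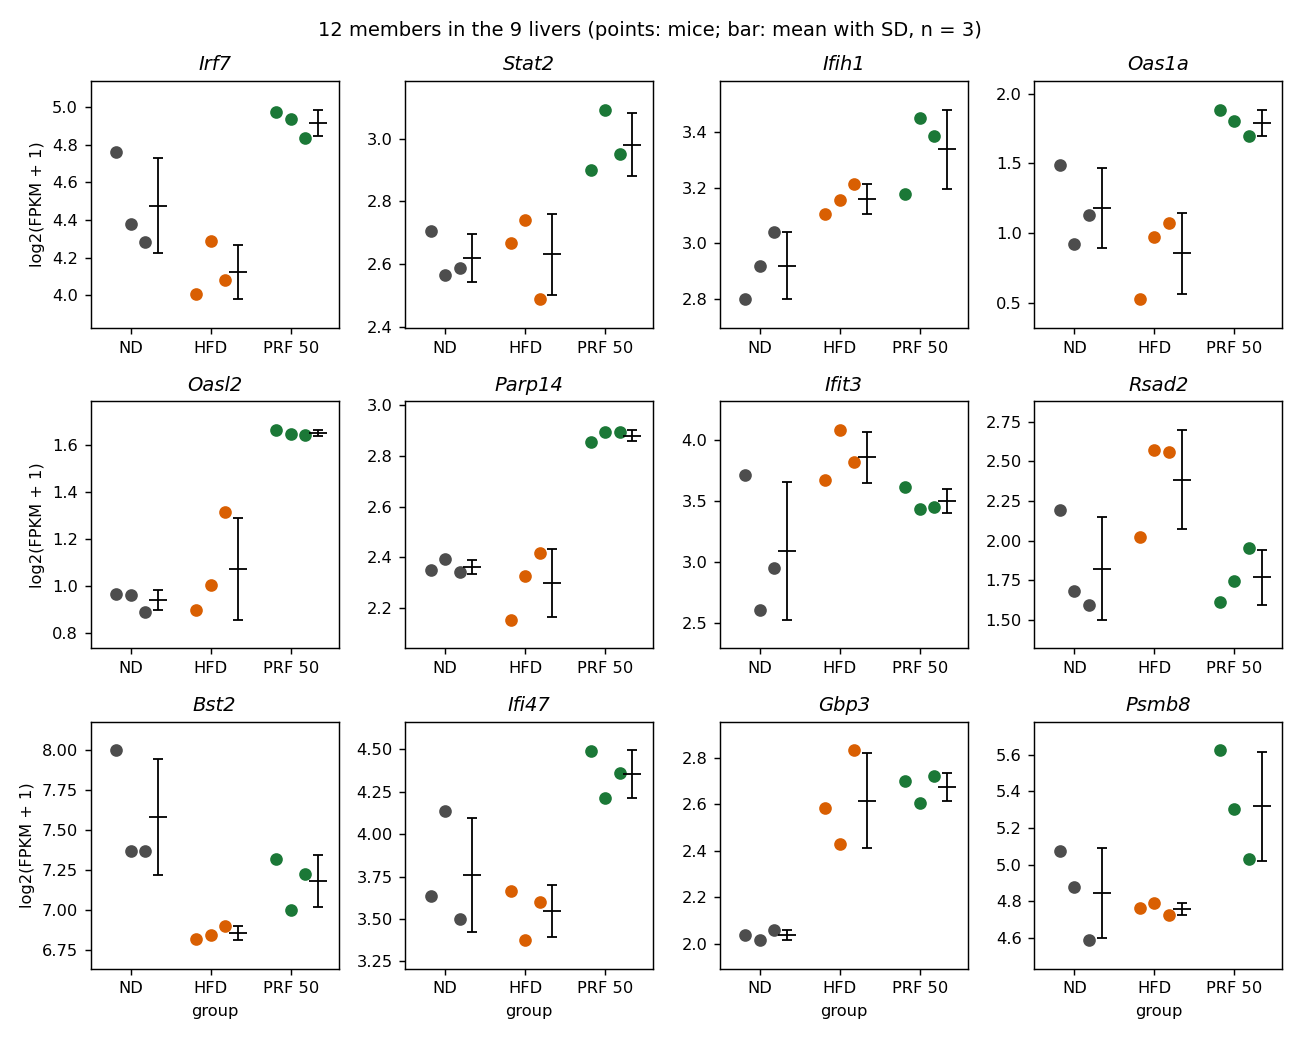
Level in log2(FPKM + 1) of single genes of the interferon response in each of the 9 livers, with 1 point per liver, a bar for the mean with its SD, and the 3 groups side by side. Irf7, at 4.97, 4.94 and 4.84 in PRF 50, shows all 3 treated livers above the other 6.

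The interferon-inducible GTPases attack the membranes of vacuoles that hold microbes. limma called Ifi47 of 10 tested in PRF 50 against HFD, Gbp3 of 10 in PRF 50 against ND and 0 of 9 in HFD against ND. Of all genes, 1.43%, 0.159% and 0.702% were called higher in these comparisons. At an unadjusted p under 0.05 there were 2, 4 and 2 GTPase genes higher and 0 lower, beside 8.47%, 6.06% and 7.82% of all genes higher. Iigp1 was the most abundant, at 152, 170 and 197 FPKM in ND, HFD and PRF 50. It stood at 7.22, 7.30 and 7.25 in the ND livers, 7.41, 7.42 and 7.43 in the HFD livers and 7.55, 7.46 and 7.85 in the PRF 50 livers. The groups did not overlap and followed each other in the order ND, HFD, PRF 50. The log2 fold changes of Iigp1 were 0.16 in HFD against ND, 0.20 in PRF 50 against HFD and 0.36 in PRF 50 against ND (adjusted p 0.508, 0.412 and 0.325 by limma). The value against HFD became 0.08 without PRF 50 mouse 10 and 0.32 with quantile normalization.

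Ifi47, an immunity-related GTPase, stood at 3.64, 4.14 and 3.50 in the ND livers, 3.67, 3.37 and 3.60 in the HFD livers and 4.49, 4.21 and 4.36 in the PRF 50 livers. All 3 PRF 50 livers lay above the rest, with ND mouse 7 close below. Ifi47 (chr11:49076587-49096974, plus strand) rose in PRF 50 against HFD by 0.81 (95% confidence interval 0.54 to 1.07, adjusted p 0.0212 by limma), from 10.7 to 19.5 FPKM. The call held in 10 of 13 alternatives, in a range of adjusted p from 0.0144 to 0.0708. It ended without HFD mouse 2 (0.0708), HFD mouse 3 (0.0681) or PRF 50 mouse 3 (0.0611). Against ND the log2 fold change was 0.60 (adjusted p 0.216 by limma).

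Gbp3, a guanylate-binding protein, was lowest in the ND livers. Its values were 2.04, 2.02 and 2.06 in the ND livers, 2.58, 2.43 and 2.83 in the HFD livers and 2.70, 2.61 and 2.72 in the PRF 50 livers. Every liver of the 2 groups on the high-fat diet lay above every ND liver, and those 2 groups overlapped. Gbp3 (chr3:142560026-142573209, plus strand) rose in PRF 50 against ND by 0.64 (95% confidence interval 0.41 to 0.86, adjusted p 0.0447 by limma), from 3.11 to 5.39 FPKM. Of 12 alternatives 4 kept that call, with adjusted p from 0.0357 to 0.179. Every omission of 1 liver ended it (0.0706 to 0.179), as did no minimum level and quantile normalization. Between HFD and ND the log2 fold change was 0.58 (adjusted p 0.0833 by limma), which a single fit of all 9 livers brought to 0.0403 in a range up to 0.275 over 12 alternatives. Between PRF 50 and HFD it was 0.06 (adjusted p 0.824).

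Gbp7, the neighbour of Gbp3, stood at 2.59, 2.53 and 2.49 in the ND livers, 2.90, 2.68 and 2.85 in the HFD livers and 2.79, 2.61 and 2.77 in the PRF 50 livers. Its ND livers were the lowest 3 of the 9. The log2 fold change of Gbp7 was 0.27 in HFD against ND (unadjusted p 0.0294, adjusted p 0.277 by limma) and 0.19 in PRF 50 against ND. Gbp2, another neighbour, had log2 fold changes of 0.62 in HFD and 0.62 in PRF 50 against ND, with wide spread. Irgm2, a regulator of the other GTPases, had 0.42 in PRF 50 against HFD (unadjusted p 0.0340 by limma). The rest, Gbp6, Igtp, Irgm1 and Tgtp1, ran from -0.33 for Gbp6 to 0.20 for Igtp in that comparison.

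Psmb8 encodes the chymotrypsin-like subunit of the immunoproteasome and was the most abundant of its 5 genes over the 9 livers. It stood at 5.07, 4.88 and 4.59 in the ND livers, 4.77, 4.79 and 4.72 in the HFD livers and 5.62, 5.30 and 5.03 in the PRF 50 livers. PRF 50 lay above HFD in every liver and overlapped ND, where mouse 6 lay above PRF 50 mouse 10. In PRF 50 against HFD the log2 fold change of Psmb8 was 0.56 (adjusted p 0.0899 by limma) and against ND it was 0.47 (adjusted p 0.351). For HFD against ND it was -0.09, 0.03 without ND mouse 6 and -0.22 without ND mouse 9. All 5 genes of this role had positive log2 fold changes in PRF 50, with a median of 0.38 against HFD and 0.40 against ND. The positive shares of all genes were 47% and 43.4%. Tap1 and Tap2, the 2 chains of the peptide transporter, had 0.44 and 0.38 against HFD (unadjusted p 0.0143 and 0.0400 by limma). Psmb9 and Psmb10, the other catalytic subunits, had 0.31 and 0.36. limma called 0 of the 5 in any comparison, and at an unadjusted p under 0.05 there were 3 higher in PRF 50 against HFD, 0 in HFD against ND and 3 higher in PRF 50 against ND, beside 8.47%, 7.82% and 6.06% of all genes.

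The immunoproteasome subunits replace constitutive ones, and the share of each within the RNA of its pair was computed. Protein was not measured. The FPKM of Psmb8 was 18.3%, 18.8% and 18.7% of Psmb8 and Psmb5 together in the ND livers, 21.4%, 18.3% and 18.5% in the HFD livers and 30.5%, 29.8% and 23.4% in the PRF 50 livers. All 3 PRF 50 livers lay above the other 6. Psmb9 made up 25.1%, 27.7% and 19.1% of its pair with Psmb6 in PRF 50 and from 13.8% to 23% elsewhere. Psmb10 made up 19.7%, 18.1% and 13.8% of its pair with Psmb7 in PRF 50 and from 10.4% to 15.4% elsewhere. PRF 50 mouse 10 lay within the range of the other groups for the last 2 pairs, and the shares were not tested. The 14 constitutive 20S subunits had a median log2 fold change of -0.06 in PRF 50 against HFD, -0.16 in HFD against ND and -0.22 in PRF 50 against ND. limma called 0 of the 14 in any comparison, and at an unadjusted p under 0.05 there were 0, 0 and 1 (Psma5, lower). Of all genes, 11.8%, 7.26% and 6.44% were lower at that level.

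**Figure D4:**
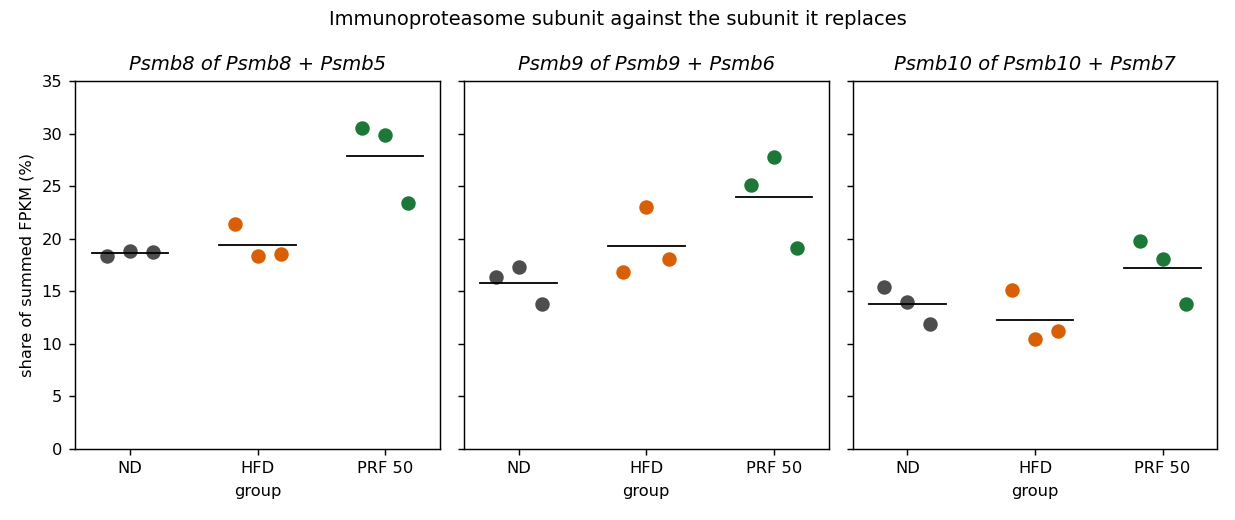
Share of each immunoproteasome subunit in the FPKM of its pair with the constitutive subunit it replaces, in percent, with 1 point per liver. The Psmb8 share was 30.5%, 29.8% and 23.4% in PRF 50 and at most 21.4% in the other livers.

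None of the 3 class I genes was called, and the ND livers were spread widely for B2m. B2m, its light chain, was the most abundant of all 49 genes and stood at 11.68, 11.29 and 10.79 in the ND livers, 11.20, 11.15 and 11.12 in the HFD livers and 11.15, 11.10 and 11.02 in the PRF 50 livers. The ND livers spanned all others. The log2 fold change of B2m was -0.07 in PRF 50 against HFD (95% confidence interval -0.37 to 0.24), -0.10 in HFD against ND (-0.65 to 0.44) and -0.17 in PRF 50 against ND. Without ND mouse 6 the last 2 became 0.11 and 0.05, and without ND mouse 9 they became -0.33 and -0.40. Quantile normalization brought the 3 values to -0.16, 0.07 and -0.11, and without PRF 50 mouse 10 the first was -0.03. H2-K1 and H2-D1, the heavy chains, had log2 fold changes of 0.06 and 0.24 in PRF 50 against HFD. Between HFD and ND they had -0.41 (95% confidence interval -0.93 to 0.11) and -0.14, and H2-K1 averaged 704 FPKM in ND and 541 in HFD. For H2-K1 a low liver occurred in each high-fat group, at 8.56 in HFD mouse 2 and 8.56 in PRF 50 mouse 9, against 9.20 to 9.49 in the other 4. limma called 0 of the 3 in any comparison, and 0 had an unadjusted p under 0.05. Of all genes, 8.47%, 7.82% and 6.06% were higher at that level in PRF 50 against HFD, HFD against ND and PRF 50 against ND. Those lower were 11.8%, 7.26% and 6.44%. Calls took 1.43%, 0.702% and 0.159% of all genes higher and 2.16%, 0.631% and 0.298% lower.

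Single livers carried much of the spread within groups. ND mouse 6 was the highest ND liver for 32 of the 49 genes, among them 18 of 23 effectors, and ND mouse 9 was the lowest for 26, among them all 5 immunoproteasome and transporter genes and all 3 class I genes. HFD mouse 1 was the lowest HFD liver for 33 genes, among them 20 of 23 effectors. PRF 50 mouse 3 was the highest of its group for 27, among them 8 of 10 GTPases, all 5 immunoproteasome and transporter genes and all 3 class I genes. Usp18 stood at 3.61 in ND mouse 6 and 2.41 in ND mouse 9.

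Genes that act before and beside the 49 were read in the same fits. Of 21 interferon ligand genes 2 were above 0 in any liver, Ifnb1 at 0.17 in HFD mouse 2 and Ifng at 0.21, 0.22 and 0.22 in ND mouse 6, HFD mouse 1 and PRF 50 mouse 9, and none was tested. Among 16 genes of the receptors and JAK-STAT signalling 14 were tested and limma called 0 in any comparison. At an unadjusted p under 0.05, 4, 0 and 2 were higher in PRF 50 against HFD, HFD against ND and PRF 50 against ND. The shares of all genes higher at that level were 8.47%, 7.82% and 6.06%, and 0 of the 14 were lower. Socs3, a feedback inhibitor, stood at 2.88, 2.66 and 1.66 in PRF 50, 1.51, 1.67 and 1.37 in HFD and 1.90, 2.83 and 1.43 in ND, with a log2 fold change of 0.88 against HFD (adjusted p 0.155).

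Of 19 genes for sensing adaptors, kinases and other interferon regulatory factors 14 were tested. In PRF 50 against HFD limma called 3 higher and 0 lower, beside 1.43% and 2.16% of all genes. At an unadjusted p under 0.05, 4 were higher and 0 lower there, beside 8.47% and 11.8%. Irf5, a factor of myeloid cells, stood at 2.79, 2.47 and 2.61 in the ND livers, 1.36, 1.99 and 2.15 in the HFD livers and 3.46, 2.93 and 3.40 in the PRF 50 livers. No liver of 1 group overlapped another, in the order HFD, ND, PRF 50. Irf5 rose in PRF 50 against HFD by 1.43 (adjusted p 0.0274 by limma, 0.0101 to 0.0833 over 12 alternatives), a call that ended without HFD mouse 2, HFD mouse 3, PRF 50 mouse 3 or PRF 50 mouse 10 and with no minimum level (0.0647). Irf8, a factor of macrophages and dendritic cells, stood at 1.22, 1.46 and 1.77 in the ND livers, 1.22, 1.49 and 1.34 in the HFD livers and 2.41, 1.98 and 2.10 in the PRF 50 livers. The treated livers were the highest 3. It rose by 0.81 (adjusted p 0.0322 by limma, 0.0303 to 0.105 over 12 alternatives), and of the 6 omissions only that of PRF 50 mouse 9 kept the call, which also ended with no minimum level (0.0704). Unc93b1, which carries endosomal Toll-like receptors, stood at 3.83, 3.80 and 3.71 in the ND livers, 3.63, 3.68 and 3.65 in the HFD livers and 4.42, 4.19 and 4.20 in the PRF 50 livers. HFD held its lowest 3 values and PRF 50 its highest 3. It rose by 0.62 (adjusted p 0.0237 by limma, 0.0103 to 0.0817 over 13 alternatives), a call that ended without HFD mouse 1, 2 or 3 or PRF 50 mouse 3. In HFD against ND limma called 0 of the 14, with 1 lower (Irf5, -0.79) at an unadjusted p under 0.05, beside 7.26% of all genes. In PRF 50 against ND it called 0, with 4 higher at that level, beside 6.06% of all genes.

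Among 64 other interferon-stimulated genes 48 were tested in PRF 50 against HFD, with 42 positive log2 fold changes (beside 47% of all genes) and a median of 0.35. limma called 4 higher and 1 lower there, beside 1.43% and 2.16% of all genes, and 22 were higher and 1 lower at an unadjusted p under 0.05, beside 8.47% and 11.8%. In HFD against ND it called 0 of 45, with 4 higher and 2 lower at an unadjusted p under 0.05, beside 7.82% and 7.26%. In PRF 50 against ND it called 1 of 48 higher, beside 0.159% of all genes. At an unadjusted p under 0.05, 22 were higher and 0 lower there, beside 6.06% and 6.44%. Ifi27l2a, a mitochondrial protein of interferon-treated cells, stood at 3.77, 3.63 and 4.25 in the ND livers, 3.79, 3.72 and 4.41 in the HFD livers and 5.59, 4.99 and 5.65 in the PRF 50 livers. Its PRF 50 livers lay above the other 6, which were mixed. Ifi27l2a rose in PRF 50 by 1.44 against HFD (adjusted p 0.0289 by limma, 0.0167 to 0.0944 over 13 alternatives) and by 1.53 against ND (adjusted p 0.0420, 0.0239 to 0.160 over 13 alternatives). Of the omissions only that of PRF 50 mouse 9 kept the first call, and the second ended without ND mouse 6, ND mouse 7, PRF 50 mouse 3 or PRF 50 mouse 10. With no minimum level both ended (0.0654 and 0.124).

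Ly6e, a surface protein that restricts coronaviruses, stood at 6.54, 6.37 and 6.23 in the ND livers, 6.00, 6.30 and 6.17 in the HFD livers and 7.65, 7.49 and 6.72 in the PRF 50 livers. The treated livers were again the highest 3 of the 9. Ly6e rose in PRF 50 against HFD by 1.13 (adjusted p 0.0469 by limma, 0.0141 to 0.141 over 13 alternatives), and of the omissions only that of PRF 50 mouse 10 kept the call, which also ended with no minimum level (0.0913). Ifi204, a DNA sensor of the nucleus, stood at 2.56, 2.06 and 2.55 in PRF 50, from 1.27 to 1.72 in HFD and from 1.44 to 2.20 in ND. Epsti1, a macrophage response gene, stood at 1.97, 1.79 and 1.88 in PRF 50, from 0.92 to 1.29 in HFD and from 0.68 to 1.48 in ND. Against HFD they rose in PRF 50 by 0.87 and 0.79 (adjusted p 0.0440 and 0.0274 by limma), and of the omissions only that of PRF 50 mouse 9 kept either call. The adjusted p ran from 0.0356 to 0.129 for Ifi204 and from 0.0270 to 0.0920 for Epsti1 over 12 alternatives each. Both calls also ended in 1 fit of all 9 livers (0.0632 and 0.0540) and with no minimum level (0.0919 and 0.0613), and that of Ifi204 with quantile normalization (0.0549). A pseudocount of 0.1 brought the log2 fold change of Epsti1 to 1.19. Ifit3b, a near copy of Ifit3, stood at 2.15, 1.37 and 1.40 in the ND livers, 2.21, 2.50 and 2.32 in the HFD livers and 1.34, 1.75 and 1.79 in the PRF 50 livers. All HFD livers were above the other 6. Ifit3b fell in PRF 50 against HFD by 0.72 (adjusted p 0.0474 by limma, 0.0473 to 0.153 over 12 alternatives), a call that no omission of 1 liver kept. Only 2 of the 12 kept it, and it ended in 1 fit of all 9 livers (0.0998), with a pseudocount of 0.1 (0.0510), with no minimum level (0.0984) and with quantile normalization (0.0506).

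The chemokines Cxcl9 and Cxcl10, which draw T cells, varied between single livers of a group. Cxcl9 stood at 2.15, 2.58 and 2.71 in the ND livers, 3.17, 2.04 and 2.71 in the HFD livers and 3.73, 1.92 and 2.61 in the PRF 50 livers. Cxcl10 stood at 2.30, 2.16 and 2.15 in the ND livers, 2.30, 2.22 and 2.87 in the HFD livers and 2.92, 1.26 and 2.31 in the PRF 50 livers. PRF 50 held both the highest and the lowest liver of both genes, and the log2 fold changes against HFD were 0.12 and -0.30. Of 16 other interferon-inducible GTPases 5 were tested and limma called 0, with Gbp2b alone at an unadjusted p under 0.05, in PRF 50 against HFD (1.07) and in HFD against ND (-0.76). Of 29 other genes for class I and peptide loading 25 were tested and limma called 0 in any comparison. At an unadjusted p under 0.05 there were 6 higher (H2-Q4, H2-Q7, H2-T23, Tapbp, Nlrc5 and Cd74) and 1 lower (H2-Q1) in PRF 50 against HFD, 1 higher and 2 lower in HFD against ND, and 2 higher in PRF 50 against ND. Of all genes, 8.47% were higher and 11.8% lower at that level in PRF 50 against HFD. These shares were 7.82% and 7.26% in HFD against ND and 6.06% and 6.44% in PRF 50 against ND. Nlrc5, which turns on class I genes, stood at 1.53, 1.66 and 1.26 in the ND livers, 1.25, 1.29 and 1.13 in the HFD livers and 1.65, 1.57 and 1.57 in the PRF 50 livers. Its PRF 50 livers lay above all HFD livers and within the upper range of ND, with a log2 fold change of 0.38 against HFD (adjusted p 0.0937 by limma).

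Cell type markers were read beside these results, because macrophages and lymphocytes also carry many of the 49 RNAs. The 10 Kupffer cell markers summed to 92.4, 173 and 217 FPKM in the ND livers, 111, 177 and 177 in the HFD livers and 610, 370 and 391 in the PRF 50 livers. Cd5l was the most abundant in all livers but HFD mouse 1, where C1qb was, and none was at 0. In PRF 50 against HFD the median log2 fold change of the 10 was 1.45, and limma called 9 higher, beside 1.43% of all genes. The 9 calls became 7 without HFD mouse 1, 1 without HFD mouse 2, 0 without HFD mouse 3, 1 without PRF 50 mouse 3, 8 without PRF 50 mouse 9 and 5 without PRF 50 mouse 10. In HFD against ND the median was 0.00 and limma called 0, with 0 at an unadjusted p under 0.05. In PRF 50 against ND it was 1.40, with 0 called and 10 higher at an unadjusted p under 0.05, beside 6.06% of all genes. There limma called 2 without ND mouse 9 and 1 without PRF 50 mouse 9. PRF 50 mouse 3, the highest of its group for 27 of the 49 genes, held the highest Kupffer sum of that group. Within HFD mouse 1, the lowest liver for 33 genes, likewise held the lowest sum, at 111 FPKM beside 177 and 177. Within ND the order was the other way, as mouse 6 was the highest liver for 32 genes with the lowest sum and mouse 9 the lowest for 26 with the highest sum. Whether the levels of the 49 genes followed the number of Kupffer cells was not tested.

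The sums of the 10 acute phase genes were 9268, 9932 and 7930 FPKM in the ND livers, 10918, 9037 and 7968 in the HFD livers and 38468, 21668 and 8886 in the PRF 50 livers, with Fgb, Hpx or Hp the most abundant. The 6 neutrophil markers in the tables, of 7 listed, summed to 2.63, 9.14 and 6.43 in ND, 4.14, 3.79 and 4.71 in HFD and 55.1, 18.3 and 3.24 in PRF 50. S100a8 or S100a9 was the most abundant, and Retnlg, Mpo or Camp was at 0 in every liver but PRF 50 mouse 3. In both lists PRF 50 mouse 10 lay within the range of the other groups. Whether the levels of the 49 genes followed the acute phase was not tested. Between HFD and ND limma called 1 of 10 acute phase genes, Lcn2 (higher in HFD, beside 0.702% of all genes). There 4 were higher and 1 lower at an unadjusted p under 0.05, beside 7.82% and 7.26% of all genes. In PRF 50 against HFD and against ND it called 0 of 10, with 2 and 4 higher at that level, beside 8.47% and 6.06%. All 10 log2 fold changes were positive in PRF 50 against HFD (median 0.94) and in PRF 50 against ND (median 1.27). The positive shares of all genes were 47% and 43.4%.

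Markers of other immune cells were low in all livers. The 8 markers of monocytes and dendritic cells summed to 2.47, 2.14 and 1.55 FPKM in ND, 2.45, 2.03 and 2.77 in HFD and 7.67, 3.09 and 3.91 in PRF 50, with Ly6c2 the most abundant in 6 livers and Cd209a or Chil3 at 0 in 3. The 6 markers of plasmacytoid dendritic cells, the main source of interferon alpha in blood, summed to between 2.28 and 3.78, most of it Tcf4, and Cox6a2, Klk1, Ccr9 or Pacsin1 was at 0 in 8 livers. The 6 T cell markers in the tables, of 8 listed, summed to 1.82, 1.92 and 1.31 in ND, 0.861, 0.411 and 0.883 in HFD and 3.81, 1.64 and 1.72 in PRF 50, with Cd3g or Cd4 the most abundant and Cd8a or Cd8b1 at 0 in 5 livers. The 8 NK cell markers summed to 2.85, 3.26 and 0.833 in ND, 0.646, 1.01 and 1.17 in HFD and 3.17, 1.56 and 2 in PRF 50, with Nkg7 or Gzma the most abundant and at least 1 of the 8 at 0 in every liver but ND mouse 7. The 5 B cell markers in the tables, of 7 listed, summed to 3.25, 2.94 and 2.32 in ND, 0.963, 1.60 and 0.856 in HFD and 2.06, 1.48 and 1.69 in PRF 50, with Cd79a or Cd79b the most abundant and Pax5 at 0 in 8 livers. Most of these markers lay under the minimum level and were not tested. No T cell or NK cell marker was tested in any comparison, and at most 1 marker each of B cells, of monocytes and dendritic cells and of plasmacytoid dendritic cells was. Of neutrophil markers 2 were tested. By limma an unadjusted p under 0.05 went to Ly6c2 and S100a9 in PRF 50 against HFD and Ly6c2 in PRF 50 against ND, and none of the tested markers was called. Whether the immunoproteasome and class I genes followed the lymphocytes was not tested.

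The 8 sinusoidal endothelial markers summed to between 26.7 FPKM in HFD mouse 1 and 112 in ND mouse 9, led by Clec4g. The 7 stellate cell markers summed to between 91.4 in ND mouse 6 and 187 in PRF 50 mouse 10, led by Dcn. The 6 cholangiocyte markers summed to 26.0, 27.0 and 28.5 in ND, 27.4, 36.9 and 25.6 in HFD and 41.5, 31.8 and 36.4 in PRF 50, led by Spp1, with Cftr at 0 in 4 livers. The 4 red cell genes in the tables, of 5 listed, summed to between 109 and 228, led by Hba-a1 or Alas2. limma called 0 markers of these 4 lists or of the hepatocyte list in any comparison. At an unadjusted p under 0.05 there were 1 hepatocyte and 2 stellate markers lower in PRF 50 against HFD, and 1 cholangiocyte marker higher and 1 red cell gene lower in PRF 50 against ND. In HFD against ND there were 3 hepatocyte and 3 sinusoidal markers lower and 2 stellate markers higher at that level. Shares of all genes lower were 11.8% in PRF 50 against HFD, 7.26% in HFD against ND and 6.44% in PRF 50 against ND. Those higher were 8.47%, 7.82% and 6.06%.

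**Figure D5:**
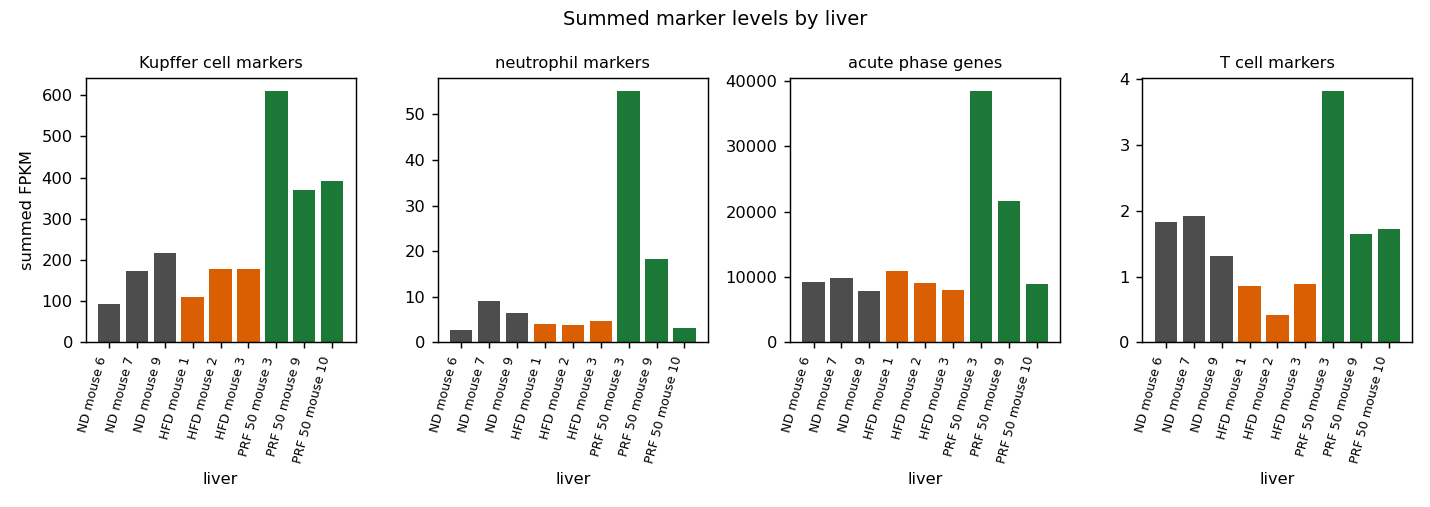
Summed FPKM of Kupffer cell markers, neutrophil markers, acute phase genes and T cell markers in each of the 9 livers, with 1 bar per liver. The Kupffer cell sum was 610, 370 and 391 FPKM in PRF 50 and at most 217 in the other livers.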

How the data were processed

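The authors deposited log2 FPKM values for 23183 gene symbols, made by adding 1 (inferred from a lowest value of 0) and taking log2. They trimmed reads with FASTX_Trimmer and BBMap, used TopHat for mapping to mm10 and Cufflinks for FPKM, and scaled geometrically in EdgeR. Versions, gene annotation, strand setting of the counting, depth and batches were not stated in the sources used here. The deposited values were used as they were. Each comparison tested the genes that averaged 1 FPKM or more in its 6 livers with limma 3.58.1 in R 4.3.3 (lmFit, eBayes with a trend), with Benjamini-Hochberg adjustment over all genes tested, and a call was an adjusted p under 0.05. The fits were tried on simulated data. The members and lists were chosen with earlier results of these data known.

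Values in every liver were planned for members called in any comparison, the 5 smallest p of each comparison, the most abundant member of each role, and, among others, Ifi27l2a, Ly6e, Nlrc5, Cxcl10, Cxcl9 and Socs3. From other pathway lists called genes were named, at most 5 per list. Genes named outside this rule were chosen after the values were seen. Alternatives were 1 fit of all 9 livers, a pseudocount of 0.1, no minimum, a minimum mean of 10, quantile normalization, scaling by median of ratios, no trend in eBayes, and omission of each liver in turn. Those for called genes of other lists were added after the data were seen. Gene coordinates are from GENCODE M21 on GRCm38, promoters from RefSeq on GRCm38.p6.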

Additional observations from a re-analysis of the deposited data

How the results depend on the processing

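Calls between PRF 50 and HFD went from 4 to 2 with no minimum level, 2 with a minimum mean of 10, 5 in 1 fit of all 9 livers (Oasl2 added), 5 with quantile normalization (Ifitm3 added), and 0 to 4 with 1 liver left out. Calls between HFD and ND went from 0 to 1 in 1 fit of all 9 livers and 1 with quantile normalization. Those between PRF 50 and ND went from 2 to 1 with a pseudocount of 0.1, 0 with no minimum level, 0 with a minimum of 10, 0 with quantile normalization, 3 in 1 fit of all 9 livers (Parp14 added), and 0 to 1 with 1 liver left out. At an unadjusted p under 0.05, members higher in PRF 50 against HFD went from 14 to 8 with a minimum of 10, when 23 members were tested. Members lower went from 2 to 1 in 1 fit of all 9 livers, 1 with a minimum of 10, and 1 to 4 with 1 liver left out. In HFD against ND members higher went from 5 to 1 with a minimum of 10 and 2 to 8 with 1 liver left out, and members lower from 2 to 1 with no minimum and 1 to 2 with 1 liver left out. In PRF 50 against ND members higher went from 19 to 7 with a minimum of 10 and 10 to 23 with 1 liver left out, and members lower from 0 to 1 in 1 fit of all 9 livers and 0 to 1 with 1 liver left out. The median log2 fold change in HFD against ND went from 0.12 to -0.10 with a minimum of 10 and -0.0146 to 0.18 with 1 liver left out. The sign of B2m in HFD against ND turned from -0.10 to 0.0736 with quantile normalization, and 1 liver left out gave -0.33 to 0.11. That of Psmb8 in HFD against ND turned from -0.09, at -0.22 to 0.0270 with 1 liver left out, and that of B2m in PRF 50 against ND from -0.17, at -0.40 to 0.0487. For single genes 413 other alternatives kept sign and call status, whatever the size, while 92 ended a call and 5 added one. A minimum of 10 left fewer members to test, and an omission left fewer livers. For the other settings the cause was not tested. No paired analysis was possible because the mouse numbers did not pair animals between groups.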

Other observations

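The tested members of each chromosome that carries at least 3 of the 49 are set side by side here for PRF 50 against HFD. On chromosome 19 Ifit1 and Ifit3 had log2 fold changes of -0.33 and -0.36, and Ifit2, beside them, had 0.44. On chromosome 2, Ifih1 had 0.18, Zbp1 0.57 and B2m -0.07. On chromosome 3, Ifi44 had 0.22, Gbp2 0.00, Gbp3 0.06 and Gbp7 -0.09. On chromosome 16, Parp14 had 0.58, Mx2 0.19 and Parp9 0.07. On chromosome 12, Rsad2 and Cmpk2 had -0.62 and -0.37, and Ifi27 had 0.19. The 3 tested genes of the synthetase family on chromosome 5 had 0.93 for Oas1a, 0.58 for Oasl2 and 0.10 for Oasl1, and Gbp6 had -0.33. On chromosome 11, Ifi47 had 0.81, Xaf1 0.72, Irgm2 0.42, Irf1 0.32, Igtp 0.20, Dhx58 0.18, Ifi35 0.13, Tgtp1 0.03 and Irgm1 -0.02.

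On chromosome 17 the proteasome and transporter genes Psmb8, Psmb9, Tap1 and Tap2 had log2 fold changes of 0.56, 0.31, 0.44 and 0.38 in PRF 50 against HFD. The class I heavy chains H2-K1 and H2-D1, which lie on the same chromosome, had 0.06 and 0.24. B2m exceeded both heavy chains in all 9 livers, at 11.02 to 11.68 outside ND mouse 9 and 10.79 in that liver.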
